A study of Mus musculus with 2 samples.

Results

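This account follows 10 genes that carry the Sonic hedgehog signal from the cell surface to the nucleus. They are the transcription factors Gli1, Gli2 and Gli3, the receptor Ptch1, the signal transducer Smo, the ligand-binding protein Hhip, the co-receptors Boc, Cdon and Gas1, and the Gli-binding protein Sufu. They were taken by name from a deposited table of 19595 genes, and all 10 were found there. RNA was sequenced from neural stem cells of the brain of ICR mice, an outbred strain, at embryonic day 13. The control library carries the name psicor and the genotype WT, and the other library carries the name sh1 and the genotype KO. The series' design text calls the second group a knockdown, and its title names Ccdc25. The labels do not give the sequence or delivery of the knockdown construct, or whether a column stands for 1 culture or for pooled ones. Triplicates are mentioned in the design text, but the count table has 1 column per group. No difference below therefore has a replicate check, no test was made, and every interval is a 95% interval that covers counting error only.

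The control library held 16549682 counts in genes and the knockdown library 16058407. Levels are CPM, that is, counts scaled to a common library size, after scaling both libraries with TMM factors, and 3 counts correspond to 0.178 and 0.190 CPM. Wherever a pair of values is given, the control comes first and the knockdown library second. Ccdc25 itself had 553 and 411 counts, or 32.8 and 26.1 CPM. The ratio of knockdown over control was 0.794 (0.697 to 0.904). All 12 listed markers of neural stem cells were measured in both libraries, and 11 of them were above their control level. Summed, they reached 6888 and 9022 CPM. The summed level of 10 neuron markers was 2813 and 1198 CPM, that of 8 astrocyte markers 579 and 1981 CPM, and that of 10 oligodendrocyte lineage markers 2928 and 4760 CPM. Most of this last sum came from Olig1 (1751 and 2432 CPM) and Olig2 (1087 and 1401 CPM). By gene, 7 of 10 lineage markers were at least 2-fold higher and 1 at least 2-fold lower, beside 7.69% and 7.90% of all genes. These shares are of the 14158 genes that average 1 CPM or more. The lower marker, Mog, had 24 and 11 counts, and its counting interval included a ratio of 1. The median log2 fold of the lineage markers was 3.32, and Sox10 had a ratio of 21.02 (18.2 to 24.4). The part of these shifts in the results below was not tested. In RNA from whole cultures, fewer cells of a type and less RNA per cell cannot be told apart.

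Hedgehog ligands bind Ptch1, a receptor that in the absence of ligand holds the membrane protein Smo inactive. Boc, Cdon and Gas1 bind the ligand beside Ptch1, and Hhip binds it without passing on a signal. Active Smo in the primary cilium releases the Gli proteins from Sufu, after which Gli2 acts mainly as an activator, while Gli3 is processed mainly to a repressor when no signal comes. Gli1, Ptch1 and Hhip are themselves target genes of the pathway, and Gli1 is widely read as a reporter of its activity. In the embryonic forebrain the pathway patterns ventral progenitors and supports the division of neural stem cells and the origin of oligodendrocyte precursors.

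Of the 10 genes, Gli1 lay far below its control level. Gli1 was the only member beyond 2-fold, and the other 9 lay within it. At least 2-fold lower were thus 1 of 10 members, beside 7.90% of the 14158 genes whose mean over the libraries was 1 CPM or more. At least 2-fold higher were 0 of 10 members, beside 7.69% of these genes. By direction alone, 7 members lay above control and 3 below, beside 7033 and 7125 of these genes. The median log2 fold of the members was 0.21, beside -0.0042 over all genes. At 1.5-fold, Ptch1 was the 1 member higher, beside 16.0% of genes, and Gli1 and Gli3 were the 2 lower, beside 15.8%. The counting interval left out a ratio of 1 for 8 members, as it did for 66.8% of all genes past the same minimum. All 10 members had a mean of at least 1 CPM, and 9 reached that level in each library, the exception being Gli1 in the knockdown library.

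**Figure D1:**
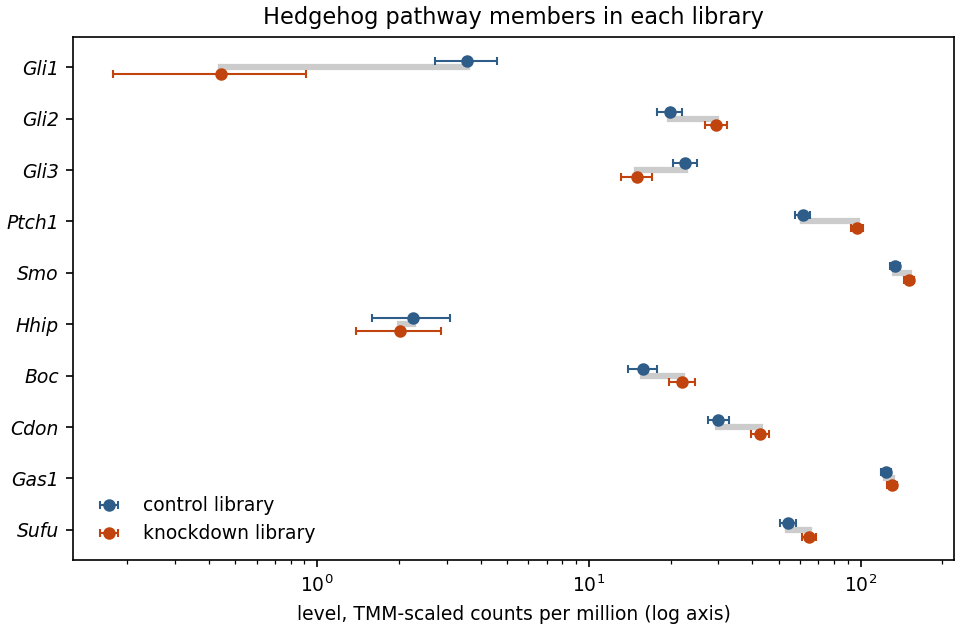
Level of each member in the control and the knockdown library, in TMM-scaled CPM on a log axis, with exact Poisson 95% intervals as error bars and a grey bar joining both libraries. Gli1 stands apart, at 3.56 against 0.444 CPM, and for Hhip and Gas1 the intervals overlap.

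Ptch1, the receptor, was the member furthest above its control level. Ptch1 (ENSMUSG00000021466, chromosome 13, 63508328 to 63573598 on the minus strand) had 1031 and 1526 counts. These are 61.2 CPM (57.5 to 65.0) and 96.8 CPM (92.0 to 102), so the counting intervals did not overlap. The ratio was 1.58 (1.46 to 1.71), a log2 fold of 0.66, and 72.6% of genes past the minimum had a smaller absolute log2 fold.

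Smo, the transducer that Ptch1 restrains, differed little. Smo (ENSMUSG00000001761, chromosome 6, 29735503 to 29761365 on the plus strand) had 2256 and 2376 counts, or 134 CPM (128 to 140) and 151 CPM (145 to 157). Its ratio of 1.13 (1.06 to 1.19) left out 1 by a small margin, and 63.6% of genes had a lower log2 fold. Ptch1 made up 0.457 counts per Smo count in the control (0.424 to 0.492) and 0.642 in the knockdown library (0.602 to 0.685). The quotient of receptor to transducer was thus 1.41 times as large in the knockdown library (1.27 to 1.55).

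Hhip, which binds ligand at the cell surface, was scarce in both libraries. Hhip (ENSMUSG00000064325, chromosome 8, 79965851 to 80058006 on the minus strand) had 38 and 32 counts, or 2.25 CPM (1.60 to 3.10) and 2.03 CPM (1.39 to 2.86). The intervals overlapped, and the ratio of 0.900 (0.544 to 1.48) allows a level from 0.544 to 1.48 times that of the control at this depth.

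Of the co-receptors, Boc and Cdon were higher in the knockdown library by factors of 1.40 and 1.42, and Gas1 was not distinguishable from its control level. Boc (ENSMUSG00000022687, chromosome 16, 44485049 to 44558897 on the minus strand), a membrane protein of the immunoglobulin superfamily, had 266 and 348 counts. These are 15.8 CPM (13.9 to 17.8) and 22.1 CPM (19.8 to 24.5), which makes a ratio of 1.40 (1.19 to 1.65). Its relative Cdon (ENSMUSG00000038119, chromosome 9, 35421128 to 35507652 on the plus strand) had 505 and 671 counts. These are 30.0 CPM (27.4 to 32.7) and 42.5 CPM (39.4 to 45.9), which makes a ratio of 1.42 (1.26 to 1.60). Cdon counts were 1.90 times Boc counts in the control and 1.93 times in the knockdown library, so the quotient changed by a factor of 1.02 (0.830 to 1.24). Ratios of this size were common in the table, as 80.5% of genes had a lower log2 fold than Boc and 81.4% than Cdon.

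Gas1, a co-receptor anchored to the membrane by a lipid, was the most abundant of the 3. Gas1 (ENSMUSG00000052957, chromosome 13, 60174405 to 60177365 on the minus strand) had 2095 and 2063 counts, or 124 CPM (119 to 130) and 131 CPM (125 to 137). Its ratio of 1.05 (0.990 to 1.12) included 1. Per Gas1 count, Cdon was 1.35 times (1.18 to 1.54) and Boc 1.33 times (1.12 to 1.58) as frequent in the knockdown library as in the control. The 3 co-receptors together had 170 and 195 CPM, and their ratio was 1.15 (1.09 to 1.21).

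Sufu, which holds Gli proteins in the cytoplasm, was slightly higher. Sufu (ENSMUSG00000025231, chromosome 19, 46396896 to 46488804 on the plus strand) had 913 and 1018 counts, or 54.2 CPM (50.7 to 57.8) and 64.6 CPM (60.6 to 68.6). The ratio was 1.19 (1.09 to 1.30), and 69.04% of genes had a lower log2 fold. Sufu counts per Gli3 count were 2.39 and 4.30, or 1.80 times as large (1.49 to 2.17). Per Gli2 count, Sufu was at 2.73 and 2.199, or 0.804 times (0.678 to 0.953).

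**Figure D2:**
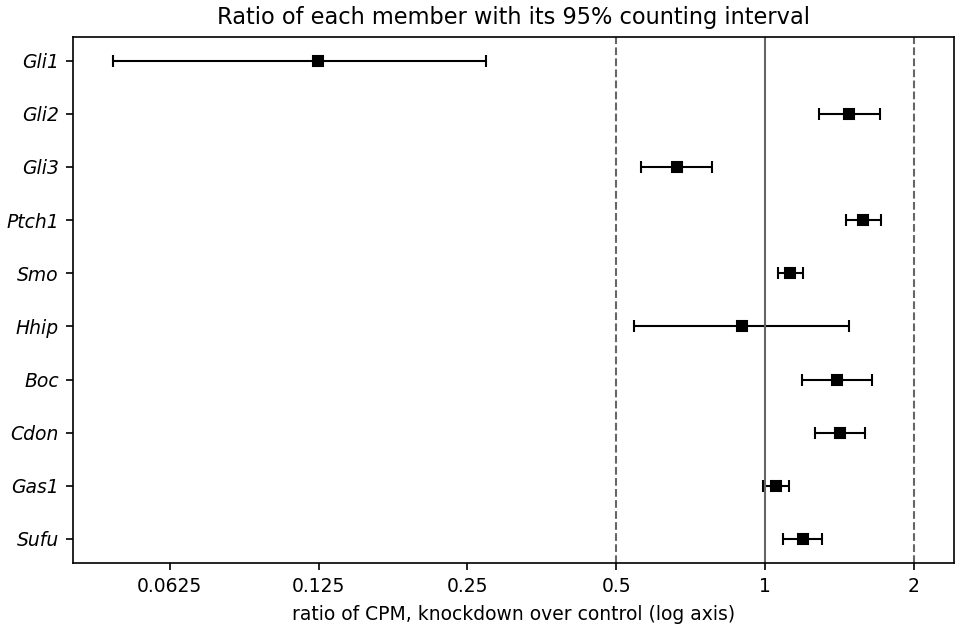
Ratio of CPM, knockdown over control, of each member on a log axis, with the exact conditional binomial 95% interval; the solid line marks a ratio of 1 and the dashed lines 2-fold. Gli1 at 0.125 lies beyond 2-fold and Gli3 at 0.663 within it, while Gli2, Ptch1, Boc and Cdon lie between 1.40 and 1.58.

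The 3 Gli genes differed in unlike directions. Gli2 (ENSMUSG00000048402, chromosome 1, 118834132 to 119053619 on the minus strand), the main activator, had 334 and 463 counts. These are 19.8 CPM (17.8 to 22.1) and 29.4 CPM (26.7 to 32.2), which makes a ratio of 1.48 (1.28 to 1.71). Gli3 (ENSMUSG00000021318, chromosome 13, 15463235 to 15730026 on the plus strand), the main repressor, had 382 and 237 counts. These are 22.7 CPM (20.5 to 25.1) and 15.0 CPM (13.2 to 17.1), which makes a ratio of 0.663 (0.561 to 0.782). The intervals of both libraries were apart for each of these genes, in opposite directions. Gli2 counts per Gli3 count were 0.874 in the control (0.753 to 1.02) and 1.95 in the knockdown library (1.67 to 2.29). The quotient was 2.23 times as large in the knockdown library (1.79 to 2.79), a value free of library scaling.

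Gli1 (ENSMUSG00000025407, chromosome 10, 127329882 to 127341974 on the minus strand), the Gli factor that is itself induced by the pathway, had 60 counts against 7. These are 3.56 CPM (2.72 to 4.58) and 0.444 CPM (0.178 to 0.915), and the intervals were far apart. The ratio was 0.125 (0.0481 to 0.273), an 8.02-fold lower level with bounds of 3.66-fold and 20.8-fold. Of the genes with a mean of 1 to 10 CPM, the range that holds Gli1, 15.7% were at least 2-fold and 4.96% at least 4-fold lower. Over all genes past the minimum, 0.537% had a log2 fold below the -2.92 of Gli1. Between the target genes among the members, Ptch1 had 17.2 and 218 counts per Gli1 count, or 12.7 times as many (5.76 to 33.0). Hhip had 0.633 and 4.57 counts per Gli1 count, 7.22 times as many (2.73 to 21.1).

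**Figure D3:**
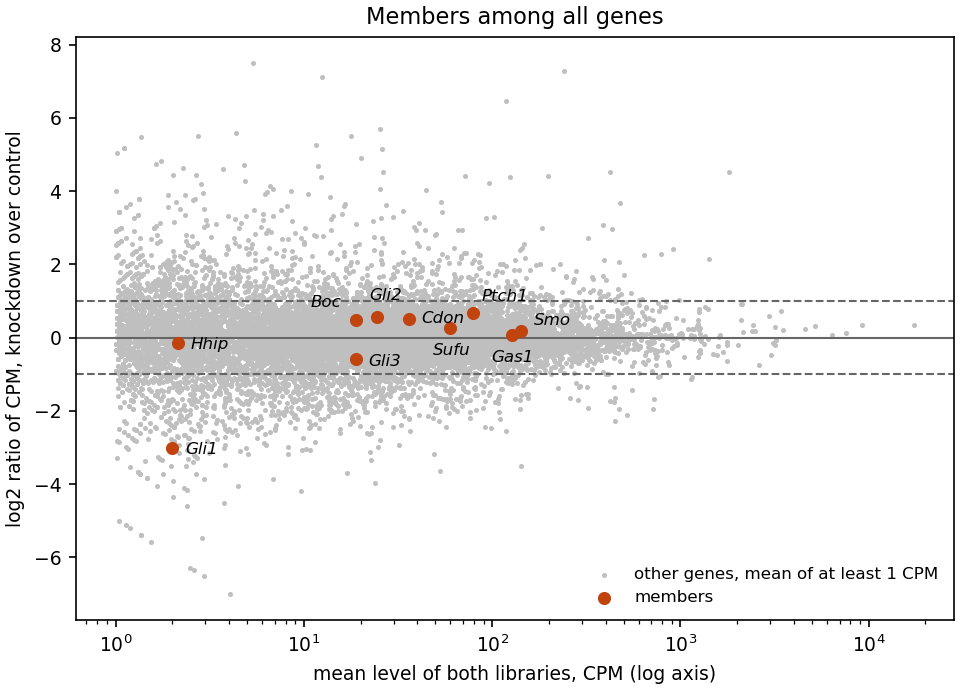
Log2 ratio of CPM, knockdown over control, against the mean level of both libraries in CPM (log axis), for genes past the minimum of 1 CPM (grey) and the 10 members (orange); dashed lines mark 2-fold, and 23 genes at 0 in a library are not drawn. Gli1 lies near the lower edge of the genes at its level, and the other members lie inside the band of 2-fold.

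The Gli family as a whole was at a like level in both libraries, with another makeup. Gli1, Gli2 and Gli3 together had 776 and 707 counts, or 46.0 and 44.8 CPM, and their ratio was 0.974 (0.878 to 1.08). Per kb of merged exons, a scale on which genes of different length can be compared, Gli2 held 48.4% and 72.1% of the summed level. The share of Gli3 was 39.6% and 26.4%, and that of Gli1 was 11.96% and 1.498%. As shares of the raw counts, Gli1 took 7.73% (5.95% to 9.84%) and 0.990% (0.399% to 2.03%, both exact Clopper-Pearson). Gli3 took 49.2% (45.7% to 52.8%) and 33.5% (30.0% to 37.1%), and neither pair of intervals overlapped.

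**Figure D4:**
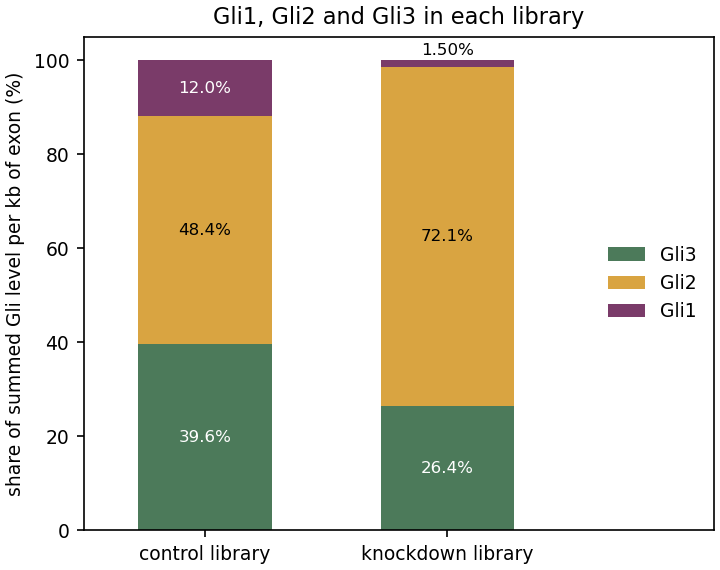
Share of the summed level per kb of merged exons, in percent, held by Gli1, Gli2 and Gli3 in the control and the knockdown library (stacked bars that add to 100%). Gli2 makes up 48.4% and then 72.1%, and Gli1 11.96% and 1.498%.

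Reads can be shared by near-identical relatives, so the transcripts of the Gli genes were compared. The longest identical run between the Gli2 and Gli3 transcripts with the longest coding part (GENCODE M21) was 25 bases, at coding positions 1339 to 1363 of Gli2 and 1528 to 1552 of Gli3, counted from the first base of the start codon. This run is printed because it is the longest stretch at which reads of the pair could not be told apart.
Gli2 and Gli3 shared run: aagaaggagttcgtgtgccgctggc
Between Gli1 and Gli2 the longest run was 23 bases and between Gli1 and Gli3 14 bases, while Boc and Cdon shared up to 31 bases. The read length is not given in the sources used here.

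Some members share exonic bases with genes on the opposite strand, and no label tells if strand was used in counting. Gli1 shares 62 exonic bases with Arhgap9, which had 5 and 0 counts, and 265 with the antisense gene Gm47200, so its value is uncertain to that extent. Gli3 shares 188 bases with Gm6556, at 1 and 7 counts, and Gas1 589 bases with Gm48488, at 5 and 0 counts. Hhip shares 175 bases with Gm27820, a small RNA gene. For Gli2, Ptch1, Smo, Boc, Cdon and Sufu no shared exonic base was found in GENCODE M21.

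Per kb of merged exons, Gas1 and Smo were the most abundant members of the pathway in both libraries. In the control, Gas1 stood at 42.0 CPM per kb (40.2 to 43.8), Smo at 23.8 (22.8 to 24.8) and Sufu at 7.04 (6.59 to 7.52). There followed Ptch1 at 4.31, Cdon at 3.88, Boc at 3.55, Gli2 at 2.89, Gli3 at 2.36, Gli1 at 0.713 and Hhip at 0.248 CPM per kb. Ptch1 and Cdon did not differ beyond counting error (quotient 1.11, 0.997 to 1.24), nor did Cdon and Boc (1.10, 0.942 to 1.28), and the other neighbours did. In the knockdown library the first 8 places were the same, Gas1 stood at 44.2 and Smo at 26.8 CPM per kb, and Cdon and Boc were again not distinguishable (1.11, 0.976 to 1.27). Ptch1 at 6.82 CPM per kb now lay above Cdon at 5.51 beyond counting error (1.24, 1.13 to 1.36). Gli2 at 4.27 CPM per kb was 2.73 times as high as Gli3 at 1.57, against 1.22 times in the control, where by coding length Gli3 stood above Gli2 instead. At the lower end, Hhip at 0.224 lay above Gli1 at 0.0889 CPM per kb (2.52, 1.09 to 6.75). In the control Gli1 was instead 2.87 times as high as Hhip (1.88 to 4.43). That order in the control depends on the length used. By coding length, 3333 bases for Gli1 and 2100 for Hhip, Gli1 did not stand above Hhip there.

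The promoters of members that differed upward and downward were read from RefSeq on GRCm38.p6, the build of the table's positions. An entry of 250 bases before and 50 after the start was matched for 8 of the 10 members, without Gli1 and Boc. The 250 bases before the start are printed for Ptch1 and Gli2, which were higher in the knockdown library, and for Gli3, which was lower. They are written 5′ to 3′ on the gene's strand, and capitals mark the GC box GGGCGG, the motif of Sp1-like factors, or its reverse complement. The windows are chr13:63565736-63565985 (minus strand) for Ptch1, chr1:119053620-119053869 (minus strand) for Gli2 and chr13:15463473-15463722 (plus strand) for Gli3.
Ptch1 promoter: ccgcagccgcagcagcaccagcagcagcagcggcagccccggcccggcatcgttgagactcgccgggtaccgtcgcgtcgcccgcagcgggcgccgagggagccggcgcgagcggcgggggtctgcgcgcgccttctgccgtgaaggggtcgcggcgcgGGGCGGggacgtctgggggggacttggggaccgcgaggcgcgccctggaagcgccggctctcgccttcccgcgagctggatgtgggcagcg
Gli2 promoter: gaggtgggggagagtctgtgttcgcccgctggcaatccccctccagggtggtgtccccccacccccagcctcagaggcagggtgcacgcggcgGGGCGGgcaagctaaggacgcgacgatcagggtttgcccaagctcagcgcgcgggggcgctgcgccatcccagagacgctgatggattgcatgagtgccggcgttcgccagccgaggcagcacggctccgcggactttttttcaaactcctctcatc
Gli3 promoter: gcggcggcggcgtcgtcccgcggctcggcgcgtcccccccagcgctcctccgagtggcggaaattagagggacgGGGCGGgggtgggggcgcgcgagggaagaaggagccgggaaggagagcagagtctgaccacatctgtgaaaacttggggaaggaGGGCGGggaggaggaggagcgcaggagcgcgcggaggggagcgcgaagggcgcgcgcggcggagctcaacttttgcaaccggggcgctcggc
The RefSeq start of Gli2 is the gene start of the table, that of Gli3 lies 488 bases and that of Ptch1 7863 bases inside the gene as the table bounds it.

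These promoters were rich in G and C, as were those of most members. The 300-base windows held 76.3% G and C and 47 CpG for Ptch1, 71.0% and 39 for Gli3, and 67.3% and 28 for Gli2. The median over 32851 RefSeq promoters was 52.7% and 7 CpG, and 7 of the 8 members were above both. The exception was Cdon, at 44.7% and 3 CpG, whose RefSeq start lies 30948 bases inside the gene. A GC box on either strand was present in 6 of 8 members and in 35.7% of all promoters. The Gli consensus GACCACCCA was searched on both strands and matched in 0 of 8 members, beside 0.253% of all promoters. CCAAT was present in 3 of 8 members (37.4% of all promoters), TATAAA in 0 (13.6%), the E box CACGTG in 0 (7.15%) and TGACGTCA in 1, Hhip (1.79%). No motif contains the letters of another, and a match or its absence describes only these letters in these windows.

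**Figure D5:**
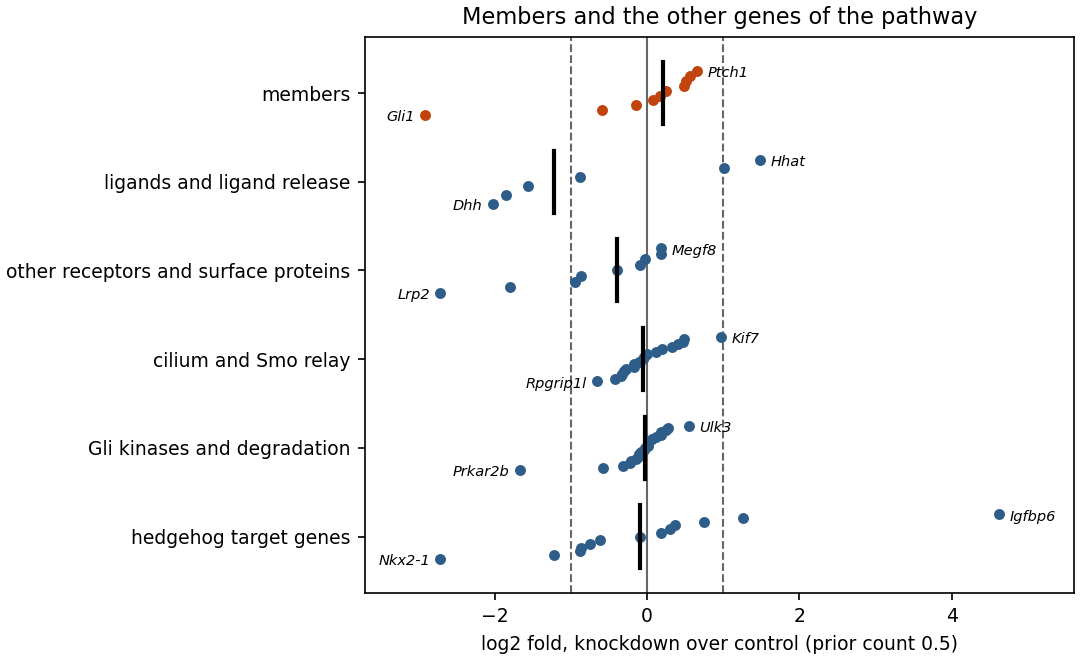
Log2 fold, knockdown over control with a prior count of 0.5, of the members and of 5 lists of other hedgehog pathway genes past the minimum of 1 CPM; each point is a gene, black bars are medians, dashed lines mark 2-fold, and the outermost genes are named. The median of the ligand and release genes lies furthest from 0, at -1.22, while the cilium genes and the Gli kinases centre near 0.

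The ligands were scarce or lower in the knockdown library. Shh, the ligand of the ventral brain, had 17 counts against 1, a ratio of 0.0629 (0.00150 to 0.401). Ihh had 10 and 3 counts, a ratio of 0.321 (0.0567 to 1.25). Dhh was the most frequent ligand, with 583 and 134 counts, or 34.6 and 8.50 CPM, and its ratio was 0.246 (0.202 to 0.297). Dhh shares 546 exonic bases with Rhebl1 on the same strand, which had 181 and 72 counts, and 1107 with an antisense gene, so its value is uncertain. Shh likewise shares exonic bases with genes on the opposite strand.

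Genes that process or release the ligand lay on both sides. Hhat, which attaches palmitate to the ligand, had 15 and 40 counts, a ratio of 2.85 (1.54 to 5.55). Disp1, the transporter that releases it, stood at 13.4 and 27.0 CPM, with the ratio at 2.02 (1.72 to 2.39). Its relative Disp2 stood at 52.3 and 28.3 CPM, and its ratio was 0.542 (0.482 to 0.608). Of the secreted carriers, Scube1 had a ratio of 0.339 (0.295 to 0.389) and Scube3 of 0.276 (0.196 to 0.382). Scube2 had 0 and 28 counts, and the lower counting limit of its ratio was 7.59. The minimum was passed by 6 listed genes of this group, of which 2 were at least 2-fold higher and 3 at least 2-fold lower, beside 7.69% and 7.90% of all genes, with a median log2 fold of -1.22.

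Of 9 other receptors and surface proteins, 0 were at least 2-fold higher, 2 were at least 2-fold lower and 7 were within it, beside 7.69%, 7.90% and 84.4% of all genes. The median log2 fold was -0.40, and -0.11 at a minimum of 10 CPM. Lrp2, an endocytic receptor that binds the ligand in the ventral forebrain, stood at 17.2 and 2.60 CPM, and its ratio was 0.151 (0.106 to 0.210). The glypican Gpc5, a surface proteoglycan, had 31 and 8 counts, a ratio of 0.276 (0.110 to 0.613). Gpc4 had a ratio of 0.521 (0.470 to 0.578), and the syndecan Sdc1 of 0.760 (0.701 to 0.823).

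Between Smo and the Gli proteins act the primary cilium and the proteins that relay the signal of Smo. All 19 listed genes lay within 2-fold, as did 84.4% of all genes, and their median log2 fold was -0.055. By direction 7 were above control and 12 below, beside 7033 and 7125 of the genes past the minimum. The counting interval left out 1 for 12 of the 19, and for 66.8% of all genes past the minimum. The furthest was Kif7, the ciliary kinesin that binds Gli proteins, at 19.9 and 39.1 CPM, and its ratio was 1.97 (1.72 to 2.25), and 877 of its exonic bases are shared with an antisense gene. Rpgrip1l, of the ciliary transition zone, had a ratio of 0.632 (0.505 to 0.790). Ift172, of intraflagellar transport, had 1.40 (1.24 to 1.59), the arrestin Arrb1 1.39 (1.27 to 1.51) and the kinase Grk2 0.749 (0.705 to 0.796).

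Of 21 genes that phosphorylate or degrade Gli proteins, 20 lay within 2-fold and 1 was at least 2-fold lower, beside 84.4% and 7.90% of all genes, with a median log2 fold of -0.032. Prkar2b, a regulatory subunit of protein kinase A, was that gene, at 83.4 and 26.3 CPM, and its ratio was 0.315 (0.282 to 0.352). The catalytic subunit Prkacb had a ratio of 0.668 (0.623 to 0.716) and the regulatory subunit Prkar2a 0.806 (0.746 to 0.870). The kinase Ulk3 had 1.47 (1.26 to 1.72), and Spopl, a relative of the ubiquitin ligase adaptor Spop, 1.21 (0.998 to 1.47), an interval that included 1. Spopl shares 448 exonic bases with a pseudogene on the opposite strand.

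Target genes other than the members went both ways. Of 20 listed genes 17 were matched in the table and 13 passed the minimum, of which 2 were at least 2-fold higher, 2 at least 2-fold lower and 9 within 2-fold, beside 7.69%, 7.90% and 84.4% of all genes. Their median log2 fold was -0.089, and 0.046 at a minimum of 10 CPM, where its sign turned. Among transcription factors of ventral progenitors, Nkx2-1 had 101 and 14 counts, a ratio of 0.148 (0.0782 to 0.260), and Nkx2-2 had 139 and 313, a ratio of 2.41 (1.96 to 2.96). Olig2, also a factor of the oligodendrocyte lineage, stood at 1087 and 1401 CPM, and its ratio was 1.29 (1.26 to 1.31). Nkx6-2 had 2 and 14 counts, a ratio of 7.48 (1.72 to 67.8). Nkx6-1 had 5 and 0 counts, with an interval of its ratio from 0 to 1.17, so a difference was not detectable at this depth. Apart from these factors of ventral progenitors, the listed target Foxf2 had 5 and 3 counts, a ratio of 0.641 (0.0996 to 3.30).

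Of the listed targets with a part in cell division, Cdk6 passed 2-fold and the others lay within it. The kinase Cdk6 had a ratio of 0.428 (0.376 to 0.486), the cyclin Ccne1 0.543 (0.473 to 0.623), and Mycn, a transcription factor of neural progenitors, 0.596 (0.522 to 0.681). Of the D-type cyclins, Ccnd2 had a ratio of 0.651 (0.627 to 0.675) and Ccnd1 0.940 (0.900 to 0.982). The Wnt antagonist Sfrp1 had a ratio of 1.68 (1.53 to 1.85), the small GTPase Rab34 1.23 (1.12 to 1.35) and the survival gene Bcl2 1.13 (0.976 to 1.32). Igfbp6, a binding protein of insulin-like growth factors, had 1 and 34 counts, a ratio of 36.3 (6.09 to 1477). Hsd11b2 had 3 and 6 counts, a ratio of 2.14 (0.456 to 13.2). Ccnd1, Ccnd2, Cdk6, Bcl2, Nkx2-2, Nkx6-2 and Foxf2 each have exonic overlap with an opposite-strand gene.

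Of further cell types that such cultures could hold, the markers of mesenchyme, ventral forebrain and microglia had lower summed levels in the knockdown library, whereas those of astrocytes and the oligodendrocyte lineage, given above, had higher ones. Of 12 markers of mesenchyme and meninges 11 were matched and 8 passed the minimum, of which 6 were at least 2-fold lower and 1 at least 2-fold higher, beside 7.90% and 7.69% of all genes. The summed level of the 11 matched markers was 336 against 47.4 CPM, and most of the control sum came from Acta2 (261 and 22.8 CPM). Lum was at 0 in the knockdown library. Pdgfrb, the 1 marker at least 2-fold higher, had 19 and 81 counts, a ratio of 4.56 (2.74 to 7.95). Of 12 ventral forebrain markers 11 passed the minimum, with 8 at least 2-fold lower and 0 higher, beside the same shares. The other 3, Gsx2, Dlx1 and Dlx2, lay within 2-fold, with ratios of 1.09, 0.974 and 1.29. The summed level of the 12 was 291 and 103 CPM. Its largest parts in the control were Sst (88.7 and 9.89 CPM) and Gad1 (62.5 and 10.7 CPM). Of 10 microglia and macrophage markers 9 were matched and 3 passed the minimum, the summed level was 37.8 and 12.05 CPM, and Csf1r, Cx3cr1, Ptprc and C1qb were at 0 in the knockdown library. Of 8 endothelial markers 6 were matched and 3 passed the minimum. Of these, 1 was at least 2-fold higher, 1 at least 2-fold lower and 1 within it, beside 7.69%, 7.90% and 84.4% of all genes. The summed level of the matched markers was 5.22 and 4.50 CPM. Both calls rest on low counts. Vwf, the higher one, had 5 and 31 counts, or 0.297 and 1.97 CPM, a ratio of 6.63 (2.55 to 21.8). Kdr, the lower one, had 25 and 9 counts, a ratio of 0.385 (0.158 to 0.852). Cdh5 had 7 and 0 counts. The part of these cells in the values of Gli1 and the ligands was not tested.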

How the data were processed

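RNA-seq of 1 control and 1 knockdown library was analysed from the authors' table. The authors deposited 1 column of raw read counts and 1 of CPM for each library (column names as per the file headers); in the CPM a count of 0 is replaced by 0.5. Bowtie2 2.2.3, TopHat2 2.0.12 and HTSeq 0.6.0 with the build mm9 are named, without settings, per the submitters' processing notes. The table's positions are those of GRCm38: 18241 of 19595 genes have the same start and end in GENCODE M21.

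Libraries were scaled with edgeR 4.0.16 TMM factors (1.018 control, 0.982 knockdown). Ratios are of scaled counts, log2 folds add a prior count of 0.5, and calls are at 2-fold among the 14158 genes that average 1 CPM or more. Intervals of ratios, and of quotients between genes within a library, are exact conditional binomial, and those of levels exact Poisson. For the change of a quotient between the libraries, the interval is the conditional odds ratio's (scipy 1.17.1). All intervals cover counting error only, since each group has 1 library. PCR copies are not independent molecules, so the intervals may be too narrow even for that error. The calculation was tested on simulated counts. Levels between genes are per kb of merged exons.

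The members and lists were chosen with earlier results of these data known, and the quotients between members after their values were seen. Named genes are all members, Ccdc25, all listed ligands and targets, and up to 5 genes per pathway list by absolute log2 fold, except an item that is not reported here; with 2 libraries no gene was named for a pattern like a member's. Disp2, Scube2, Hes1, Vim, Fabp7, Olig1, Sox10, Mog, Acta2 and Pdgfrb were named after their values were seen. The same holds for Sst, Gad1, Gsx2, Dlx1, Dlx2, Aif1, Cd68, Lyz2, Kdr, Vwf and markers at 0. Alternatives were DESeq2 1.42.0 size factors, total counts, the authors' CPM, a prior count of 5, no minimum or 10 CPM, 1.5-fold, and other gene lengths.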

Additional observations from a re-analysis of the deposited data

How the results depend on the processing

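All 30 member ratios recomputed under DESeq2 size factors, total counts and the authors' CPM stayed inside their counting intervals, with 7 members above control in each. At 1.5-fold, 1 member was higher (Ptch1) and 2 lower (Gli1 and Gli3). At a minimum of 10 CPM, which Gli1 and Hhip do not reach, 0 members were 2-fold lower, as were 0 of the other receptors. Ligand and release genes 2-fold higher numbered 1 under total counts, 1 under the authors' CPM and 1 at 10 CPM, since Disp1 lies at the threshold or Hhat below the minimum. Without a minimum 5 ligand and release genes were 2-fold lower, with a median log2 fold of -1.49. Among targets, 4 were 2-fold higher without a minimum, and at 10 CPM 1 was higher and 1 lower. By coding length, Gli2 held 42.3% and Gli3 47.2% of the Gli level in the control, which reverses their order there, and 65.8% and 32.8% in the knockdown library, and 5 members kept their place in the control's order. At 10 CPM the median log2 fold was 0.046 for targets and -0.11 for other receptors. The remaining medians kept their sign. No paired analysis was possible because each group has 1 library. For the same reason no replicate could be left out. Low counts limit Gli1, Hhip, Shh and Ihh.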
